A study of Mus musculus with 52 samples.

Results

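Collagens are the chief structural proteins of the extracellular matrix, and 44 of the 47729 gene identifiers in the deposited tables carry a collagen symbol, that is, Col with a type number, the letter a and a chain number. They were described in 52 bulk RNA libraries of mouse mammary tumours. By type, 11 of the 44 genes code for fibrillar collagens, 6 for basement membrane collagens and 27 for other collagens. The last class holds 9 FACIT genes (chains that sit on the surface of fibrils), 6 beaded-filament genes, 4 transmembrane genes, 3 network genes, 2 multiplexin genes, 1 anchoring gene and 2 remaining genes.

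The tumours grew from 4T1, an established mouse mammary carcinoma cell line, after 100000 cells were placed in the 4th left mammary fat pad of Balb/C mice. Young hosts were 8 to 10 weeks old by the sample labels and up to 12 weeks by the growth protocol, and aged hosts were older than 12 months. Antibody was given to each mouse intraperitoneally, 3 times at 200 µg, on days 7, 10 and 13 after the cells. The antibody was an isotype control, anti-PD-L1, which blocks a ligand of the T cell checkpoint receptor PD-1, or anti-CTLA4, which blocks a checkpoint receptor of T cells themselves. The 6 groups were young isotype (n = 7), young anti-PD-L1 (n = 10), young anti-CTLA4 (n = 12), aged isotype (n = 7), aged anti-PD-L1 (n = 8) and aged anti-CTLA4 (n = 8). All groups carried the same transplanted cells and an injected antibody, so none is an untreated or a spontaneous tumour. Labels number biological replicates without naming animals, so p-values cover only the spread from library to library, which may be technical.

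A collagen molecule is a triple helix of 3 chains, which can be copies of 1 gene product or come from several genes. Fibrillar collagens of types I, III and V assemble into the fibres that stiffen connective tissue and are made mainly by fibroblasts. Type IV chains form the sheet-like network of basement membranes under epithelium and around vessels, and the other collagens decorate fibrils, anchor basement membranes or span the cell membrane. In mammary tumours fibrillar collagen is known as a product of the stroma and as a feature of stiff tissue.

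The libraries hold between 9549847 and 53778370 estimated counts each (median 20665733). The labels name 3 sequencing batches, which are spread unevenly over the groups: all 7 young isotype libraries were in batch 2, and no aged library was. Bulk RNA cannot tell fewer cells of a type from less RNA per cell. The 10 fibroblast markers checked were all present in each group, with a median summed level between 316 CPM (young isotype; CPM are counts scaled to library size) and 506 CPM (young anti-CTLA4). The 6 epithelial markers checked were present too, at a median summed level of 1546 to 2609 CPM. Of 8 cartilage and bone markers 2 were kept by the filter on low counts.

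Levels between genes are compared in TPM, a deposited unit of transcript abundance, which divides by gene length. The 44 genes together made up 0.0135 to 0.382% of all TPM of a library. Their summed level was 609 ± 362 TPM (SD, n = 7) in young isotype tumours, with a lowest library at 135, a median of 696 and a highest at 1133 TPM. It was 1363 ± 1173 TPM (n = 10) in young anti-PD-L1 tumours, from 340 to 3820 TPM around a median of 985 TPM. The groups overlapped between 340 and 1133 TPM, and the highest treated libraries lay well above the isotype range.

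In young anti-CTLA4 tumours the sum was 977 ± 704 TPM (n = 12), from 180 through a median of 859 to 2838 TPM. Aged isotype tumours gave 689 ± 269 TPM (n = 7), from 367 through 682 to 1117 TPM. Aged anti-PD-L1 tumours gave 1175 ± 377 TPM (n = 8), from 628 through 1224 to 1795 TPM, and aged anti-CTLA4 tumours 1245 ± 596 TPM (n = 8), from 527 through 1197 to 2243 TPM. The ranges of all 6 groups overlapped.

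Col3a1, the chain of type III collagen found beside type I in pliable tissues, was the most abundant collagen RNA at a mean over the 6 groups of 388 TPM. In young isotype tumours it lay at 49.9, 172 and 344 TPM (lowest, median and highest), and in aged isotype tumours at 181, 276 and 606 TPM. In young anti-PD-L1 tumours it ranged from 119 to 1426 TPM with a median of 323 TPM, and in young anti-CTLA4 tumours from 93.0 to 1490 TPM with a median of 315 TPM. Aged anti-PD-L1 tumours spanned 248 to 802 TPM and aged anti-CTLA4 tumours 174 to 967 TPM. No group was separate from another in Col3a1, and 1 gene thus supplied 21.6 to 54.3% of a library's collagen TPM.

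Col1a2 and Col1a1, the chains of type I collagen, followed at means of 114 and 101 TPM. Col1a1 was at 56.3 ± 40.9 TPM (n = 7) in young isotype tumours and 52.2 ± 26.9 TPM (n = 7) in aged isotype tumours. Under anti-PD-L1 Col1a1 was at 174 ± 202 TPM (n = 10) in young and 121 ± 57.4 TPM (n = 8) in aged hosts, and under anti-CTLA4 at 96.6 ± 80.0 TPM (n = 12) and 108 ± 55.4 TPM (n = 8). In young anti-PD-L1 tumours the Col1a1 SD exceeds the mean because single libraries reached as high as 622 TPM beside a median of 90.1 TPM. The ratio of Col1a2 to Col1a1 TPM was 1.23 ± 0.243 over the 52 libraries (0.849 to 1.99), while that of Col3a1 to Col1a1 was 4.70 ± 2.19 (1.83 to 12.9). The proportion of the type I chains was thus narrow across tumours, and that of type III to type I wide.

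The other fibrillar genes were lower. Type V collagen, which is built into type I fibrils and limits their width, had Col5a2 at 28.2, Col5a1 at 15.8 and Col5a3 at 6.42 TPM (means over groups). Col27a1 was at 1.07 TPM, and Col11a2, Col24a1 and Col11a1 were at 0.420, 0.228 and 0.167 TPM. Col2a1, the main collagen of cartilage, was at 0.0552 TPM.

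Among basement membrane genes, Col4a1 and Col4a2, the pair of chains in nearly all basement membranes, led at 36.3 and 19.9 TPM. Col4a5 stood at 5.36 TPM, and Col4a6, Col4a3 and Col4a4 at 0.291, 0.214 and 0.0203 TPM. The type IV genes lie head to head in pairs: Col4a1 at chr8:11198423-11312826 on the minus strand beside Col4a2 at chr8:11312805-11449287 on the plus strand (GRCm38, GENCODE vM21). Col4a4 (chr1:82448423-82586849, minus) and Col4a3 (chr1:82586921-82722059, plus) form the second such pair, and Col4a6 (chrX:141165403-141474076, minus) and Col4a5 (chrX:141475385-141689234, plus) the third. The Col4a1 to Col4a2 TPM ratio was 1.87 ± 0.198 over the 52 libraries, from 1.51 to 2.24.

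In the remaining class the type VI chains Col6a1 (63.4 TPM) and Col6a2 (36.8 TPM), which form beaded filaments near cell surfaces, and Col18a1 (61.7 TPM), a basement membrane multiplexin whose C-terminal fragment is endostatin, stood highest. The ratio of Col6a1 to Col6a2 was 1.77 ± 0.282 (1.13 to 2.28). Col6a1 to Col6a3, the third chain of the classical type VI trimer, was 5.28 ± 3.18 and ran from 1.25 in young anti-CTLA4 replicate 8 to 16.1 in young anti-PD-L1 replicate 7. Col16a1 (29.1 TPM), the anchoring-fibril gene Col7a1 (24.4 TPM), the network gene Col8a1 (19 TPM), Col12a1 (17.7 TPM) and Col15a1 (13.9 TPM) came next.

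Col6a1 was at 65.3 ± 53.7 TPM (n = 7) in young isotype, 86.8 ± 58.9 TPM (n = 10) in young anti-PD-L1 and 57.4 ± 21.9 TPM (n = 12) in young anti-CTLA4 tumours. In aged hosts Col6a1 was at 33.6 ± 14.2, 63.9 ± 17.7 and 73.2 ± 32.0 TPM under isotype (n = 7), anti-PD-L1 (n = 8) and anti-CTLA4 (n = 8). The aged isotype group was thus lowest in Col6a1, with a range (16.1 to 56.8 TPM) that lay inside the young isotype range (6.00 to 146 TPM).

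Col18a1 was at 43.1 ± 33.4, 60.0 ± 32.5 and 37.1 ± 18.6 TPM in the young isotype, anti-PD-L1 and anti-CTLA4 groups, and at 45.6 ± 20.5, 88.0 ± 23.8 and 96.4 ± 42.2 TPM in the aged groups in that order. Col8a1 was at 9.48 ± 5.89, 16.9 ± 11.9 and 11.0 ± 6.14 TPM in the young groups and at 18.5 ± 6.19, 29.4 ± 7.16 and 28.8 ± 8.21 TPM in the aged groups. Both genes had their highest means in aged tumours given either antibody. Col14a1, in contrast, had its highest mean in young anti-PD-L1 tumours (8.17 ± 6.61 TPM, n = 10), next to aged anti-CTLA4 tumours (7.85 ± 4.01 TPM, n = 8), and its lowest in young isotype tumours (2.77 ± 1.31 TPM, n = 7).

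Several other collagens were near or below 1 TPM. The type IX chains, cartilage FACITs, were at 0.881 (Col9a3), 0.464 (Col9a2) and 0.398 TPM (Col9a1), and the type VI chains encoded side by side on chromosome 9 at 0.541 (Col6a5), 0.227 (Col6a4) and 0.0981 TPM (Col6a6). Col6a5 varied widely, from 0.0164 TPM in a young isotype library to 3.31 TPM in a young anti-CTLA4 library. The transmembrane genes Col17a1, Col23a1, Col13a1 and Col25a1 were at 0.553, 0.419, 0.396 and 0.0555 TPM. Col10a1, the collagen of growth-plate cartilage, was at 0.0309 TPM and Col22a1 at 0.0429 TPM.

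Fibrillar genes supplied 54.8 ± 6.97% of collagen TPM in young isotype tumours (n = 7) and 65.8 ± 4.63% in aged isotype tumours (n = 7). The other 4 groups had mean fibrillar shares of 62.6 to 64.8%. Basement membrane genes supplied a mean of 4.92% (aged isotype) to 6.74% (young anti-PD-L1). The remaining collagens supplied a mean of 29.2 to 38.9%, with young isotype tumours highest.

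**Figure D1:**
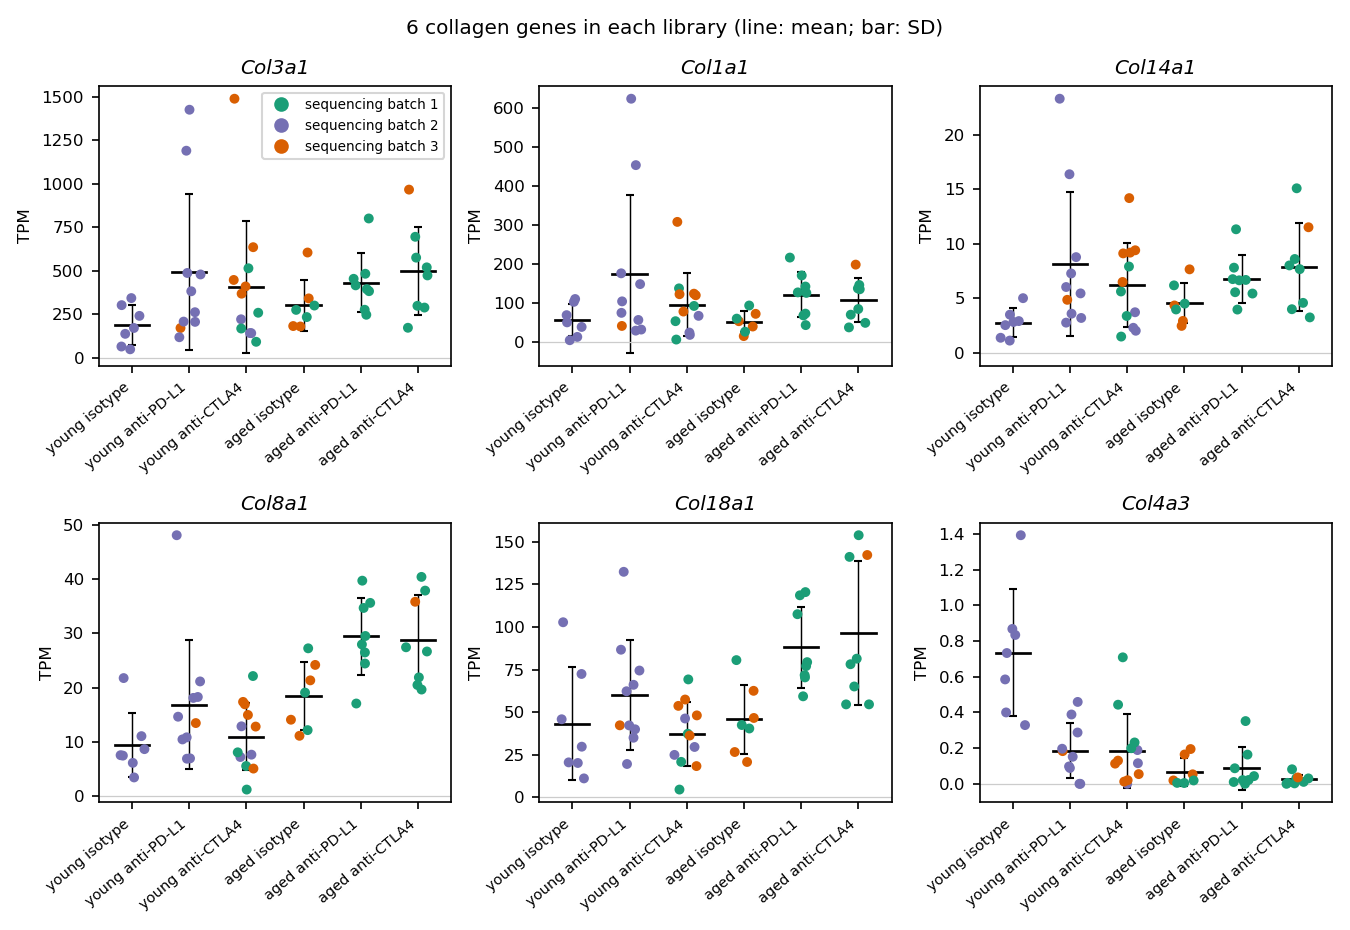
TPM of Col3a1, Col1a1, Col14a1, Col8a1, Col18a1 and Col4a3 in each library of the 6 groups, coloured by sequencing batch, with a line at the group mean and a bar for the SD. The 7 young isotype libraries hold Col4a3 between 0.329 and 1.39 TPM, above all 7 aged isotype libraries (at most 0.195 TPM) but overlapping the groups given an antibody in young hosts. The other 5 genes overlap between all groups.

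How the collagens varied together was measured over the 52 libraries, as the correlation of log2 CPM values after the means of group and batch were removed. Collagens scattered more than most genes: the SD of these residuals had a median of 0.77 log2 units for the 39 collagens kept by the filter and 0.45 for all genes tested. Col4a5 had the narrowest spread at 0.48 and Col6a4 the widest at 1.63 log2 units.

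With Col1a1 as the reference, 27 of the other 38 collagens correlated positively and 0 negatively at an adjusted permutation p under 0.05 over 17898 genes. The background was high, since 31.9% of all genes correlated positively and 27.7% negatively at that threshold. The positive collagens were 8 of 9 fibrillar, 2 of 5 basement membrane and 17 of 24 other genes. The median Pearson's r was 0.54 over the collagens and 0.03 over all genes.

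Fibrillar partners came first among all genes in the table. Col1a2 ranked 1 of 17898 by Pearson's r with Col1a1 (r 0.98, Spearman's rho 0.96), Col5a1 ranked 2 (0.97 and 0.95), Col5a3 ranked 3 (0.96 and 0.95) and Col5a2 ranked 4 (0.96 and 0.93). Each had a permutation p of 1e-05, the smallest that 100000 resamples can give. Within the 3 batches r of these 4 genes with Col1a1 lay between 0.90 (Col5a2, batch 3) and 0.99 (Col1a2, batch 2), and without the 2 libraries farthest from the Col1a1 median it was 0.96 to 0.98. RNA for type I and type V chains thus varied together from tumour to tumour, and none of the other genes tested had a higher r with Col1a1.

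The type IV genes divided. Col4a2 (r 0.92, rank 12) and Col4a1 (r 0.89, rank 34) stood near the fibrillar genes, whereas Col4a6 (r 0.04), Col4a3 (r -0.11) and Col4a5 did not pass the test with Col1a1. Col4a5 had r 0.30 over all libraries, 0.71 in batch 1, 0.02 in batch 2 and 0.07 without the 2 farthest libraries, so its value rests on few libraries. Col3a1 (r 0.86), the FACIT gene Col14a1 (r 0.85) and Col15a1 (r 0.83) were also among the closest collagens.

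Chains of 1 trimer differed in how tightly they moved. Of 13 pairs compared, Col4a1 with Col4a2 had r 0.99 (rho 0.98) and Col1a1 with Col1a2 r 0.98, each with permutation p 1e-05 (adjusted 2.2e-05). Col6a1 with Col6a2, neighbours on chromosome 10, had r 0.95 (rho 0.90), but Col6a1 with Col6a3 on chromosome 1 had r 0.44 (rho 0.49, permutation p 0.0014, adjusted 0.0015). Col4a5 and Col4a6 had r 0.64 (rho 0.61), and Col9a1 with Col9a3, chains of type IX, r 0.19 (permutation p 0.17). The pair Col3a1 and Col5a2, neighbours on chromosome 1, had r 0.91 (rho 0.90).

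With the endothelial marker Pecam1 as the reference, 24 of 39 collagens correlated positively and 0 negatively, against 27% and 27.4% of all genes. Col6a5 (r 0.74, rank 249 of 17898), Col6a6 (r 0.72) and Col15a1 (r 0.67), a collagen of vessel basement membranes, were the closest, and no collagen was among the first 100 genes. Col4a1, with r 0.51 for Pecam1 and 0.89 for Col1a1, was farther from the vessel marker than from type I collagen. Col18a1 (r -0.14), Col7a1 (r -0.24) and Col8a1 (r -0.25) did not pass with Pecam1, but passed as negative once the libraries' length trend, a slope on gene length, was removed as well.

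**Figure D2:**
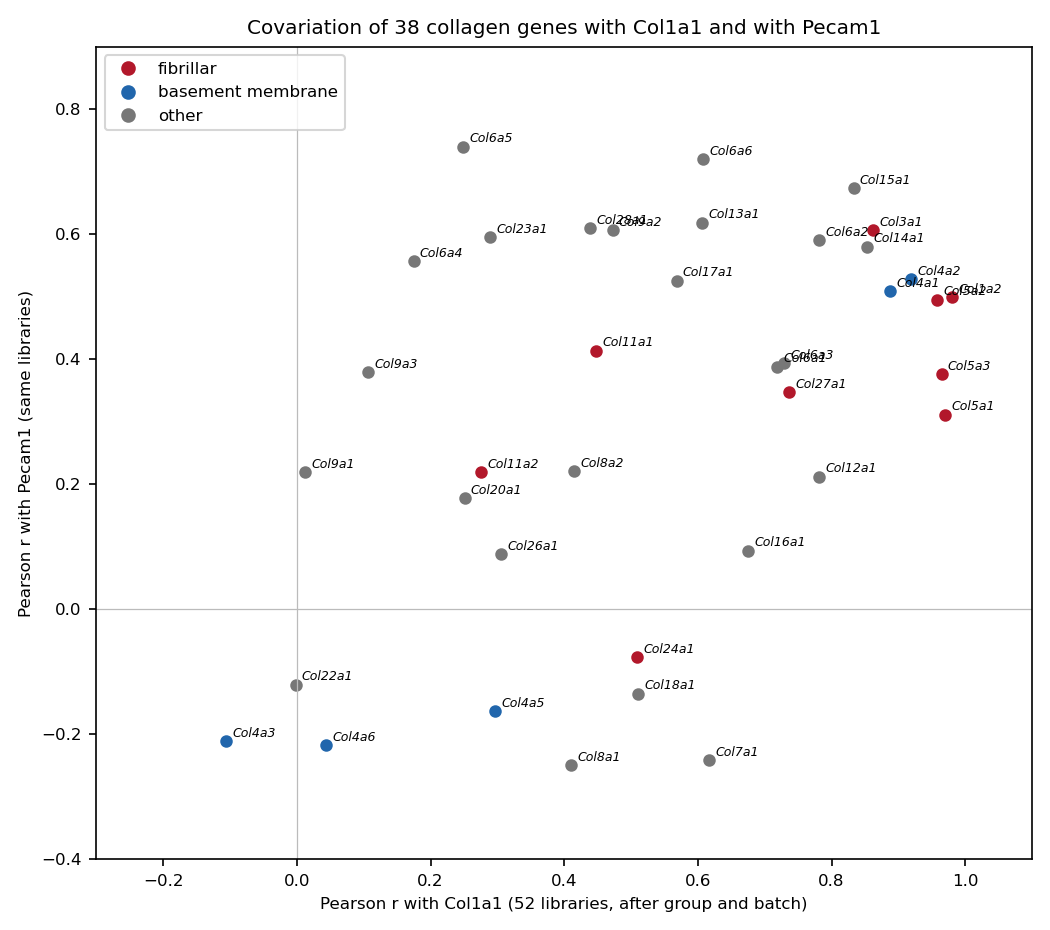
Pearson's r of 38 collagen genes with Col1a1 (horizontal) and with Pecam1 (vertical) over 52 libraries after group and batch means were removed, coloured by class. Col1a2, Col5a1, Col5a2 and Col5a3 lie at the right end at 0.96 to 0.98, Col6a5 and Col6a6 at the top at 0.74 and 0.72, and Col4a6 and Col4a3 near 0 on the horizontal axis.

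Promoter sequence is shown for the genes of highest rank with Col1a1 that the RefSeq table holds (Col1a2, Col5a1, Col5a3), and for Col3a1, the most abundant member. RefSeq promoters of build GRCm38.p6 matched 35 of the 44 members in 38 windows; Col1a1 and Col5a2 were not among them. Each run gives the 250 bases before the annotated transcript start, 5′ to 3′ on the gene's strand, with capitals marking 3 motifs that were searched on both strands. The first is CCAAT, the box bound by the factor NF-Y. The second is TATAAA, the core of the TATA box. The third is GGGCGG, the GC box bound by Sp factors. No 2 of the motifs share a stretch of sequence in these windows. Their positions are Col1a2 at chr6:4505368-4505617 (plus strand), Col5a1 at chr2:27886175-27886424 (plus), Col5a3 at chr9:20815068-20815317 (minus) and Col3a1 at chr1:45311288-45311537 (plus).
Col1a2: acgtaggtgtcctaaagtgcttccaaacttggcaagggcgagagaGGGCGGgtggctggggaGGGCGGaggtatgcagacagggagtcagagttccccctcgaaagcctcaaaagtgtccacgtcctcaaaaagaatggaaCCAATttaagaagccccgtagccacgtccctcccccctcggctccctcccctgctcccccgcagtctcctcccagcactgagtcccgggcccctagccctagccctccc
Col5a1: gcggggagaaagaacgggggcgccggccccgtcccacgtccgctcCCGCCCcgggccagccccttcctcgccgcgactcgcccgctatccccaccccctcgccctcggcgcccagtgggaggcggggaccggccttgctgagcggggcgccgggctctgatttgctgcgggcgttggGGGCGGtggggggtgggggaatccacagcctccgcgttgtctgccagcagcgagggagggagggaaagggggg
Col5a3: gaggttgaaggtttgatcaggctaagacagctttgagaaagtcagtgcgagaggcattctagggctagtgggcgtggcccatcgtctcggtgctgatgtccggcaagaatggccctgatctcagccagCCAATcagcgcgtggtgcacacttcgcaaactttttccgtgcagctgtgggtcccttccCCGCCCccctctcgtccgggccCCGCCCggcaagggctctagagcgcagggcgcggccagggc
Col3a1: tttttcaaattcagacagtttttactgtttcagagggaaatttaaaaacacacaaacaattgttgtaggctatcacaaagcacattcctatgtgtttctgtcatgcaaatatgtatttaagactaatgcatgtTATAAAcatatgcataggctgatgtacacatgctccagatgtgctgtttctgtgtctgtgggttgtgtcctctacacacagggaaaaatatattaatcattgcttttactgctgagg
The Col1a2 window holds 1 CCAAT, at 109 to 105 bases before the start, and 2 GGGCGG. Col5a1 holds 2 GGGCGG (1 on each strand) and no CCAAT, Col5a3 holds 1 CCAAT and 2 GGGCGG on the opposite strand, and Col3a1 holds 1 TATAAA alone, so the windows of these 4 genes share no single motif. The GENCODE span of Col1a2 begins upstream of its window. Over both strands CCAAT was in 34.2% of the 38 member windows and 33.8% of all 32851 windows of this length, TATAAA in 13.2% and 12.4%, and GGGCGG in 57.9% and 32.7%. These are matches of letters, not measured binding sites.

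A property of the libraries moved with collagen level. For each library, the slope of its log2 CPM deviations on log2 gene length, over 17860 genes that are not collagens, was taken as its length trend, which is positive where long transcripts are relatively high. Of the 39 collagens tested, Col26a1 and Col9a3 alone are shorter than the median gene. Over the 52 libraries the summed collagen TPM (log2) and the length trend correlated at r 0.89 and rho 0.84 after group and batch means were removed (permutation p 1e-05, the smallest possible, adjusted 2e-05), and at r 0.86 without the 2 farthest libraries. Within batches r was 0.82 (batch 1, n = 22), 0.91 (batch 2, n = 19) and 0.81 (batch 3, n = 11, permutation p 0.0022). The 5 libraries lowest in summed collagen TPM were the 5 lowest in trend: young isotype replicates 6 (135 TPM) and 1 (213 TPM), young anti-CTLA4 replicates 8 (180 TPM) and 1 (358 TPM), and young anti-PD-L1 replicate 3 (340 TPM). The part of RNA quality in the collagen values was not tested.

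**Figure D3:**
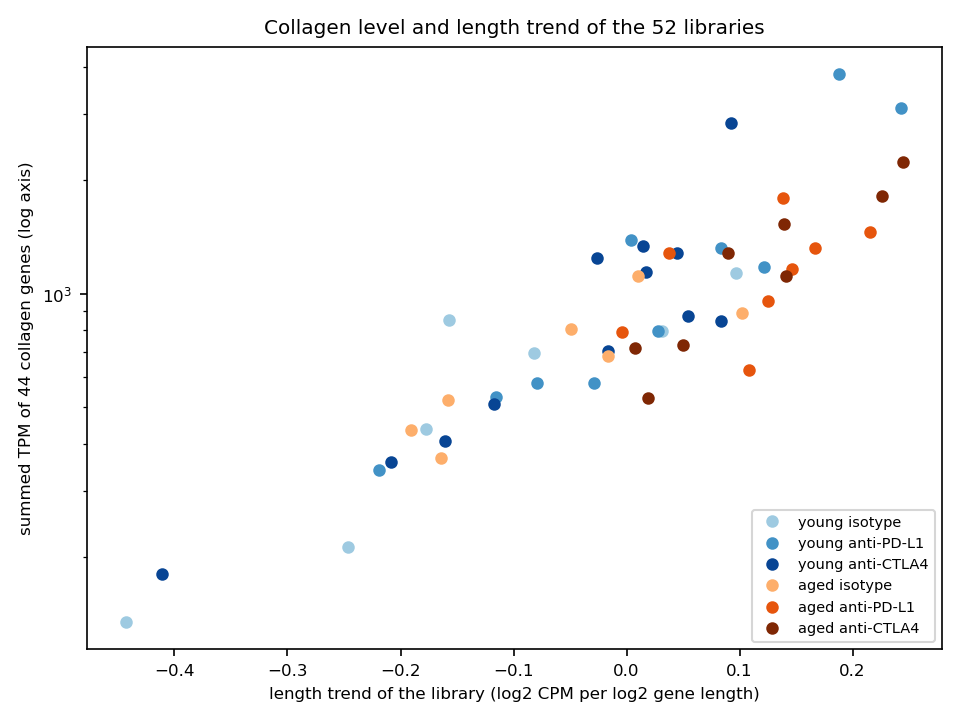
Summed TPM of the 44 collagen genes (log axis) against the length trend of each of the 52 libraries, coloured by group. Libraries with a trend below -0.2 lie at the bottom, at or under 358 TPM, and the highest sum, 3820 TPM, belongs to a library with a trend of 0.188.

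The trend differed between groups as well, with a median of -0.157 in young isotype tumours, 0.0161 under young anti-PD-L1, -0.0492 in aged isotype tumours, 0.132 under aged anti-PD-L1 and 0.115 under aged anti-CTLA4. Young anti-CTLA4 tumours had a median of -0.000907, and their difference from young isotype, 0.0715 ± 0.0835, was within its SE. With the trend removed as well, 23 collagens correlated positively with Col1a1 and 0 negatively, beside 16.6% and 15.3% of all genes. Then Col1a2, Col5a1, Col5a3 and Col5a2 remained ranks 1 to 4 with Col1a1, at r 0.95, 0.93, 0.92 and 0.90. Col4a2 was then at r 0.79 (rank 23) and Col4a1 at 0.70 (rank 115), while Col6a1 was at 0.24 and Col18a1 at -0.05. The close pairing of type I and type V genes with Col1a1 therefore kept its rank, and Col6a1 and Col18a1 did not keep theirs. With Pecam1 and the trend removed, 19 of 39 collagens were positive and 5 negative at an adjusted permutation p under 0.05, beside 23.3% and 29.1% of all genes. The 5 were Col18a1 (r -0.58), Col8a1 (-0.52), Col4a5 (-0.48), Col4a6 (-0.37) and Col7a1 (-0.37), so the count of 0 negative collagens with Pecam1 held only without this step.

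Each comparison was fitted with edgeR's quasi-likelihood test over all 52 libraries and 17899 genes, with batch as a term. To pass, a gene needed an adjusted p (Benjamini-Hochberg, over all genes) under 0.05. Values are log2 fold changes ± SE, and a group's CPM is normalized by library size and composition. Col2a1, Col4a4, Col10a1, Col19a1 and Col25a1 were too low to be kept, so 39 collagens were tested (10 fibrillar, 5 basement membrane, 24 other). Both antibody comparisons within an age share the isotype libraries.

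Anti-PD-L1 against isotype in young hosts asks what blocking PD-L1 did to the tumour's collagen RNA. Col14a1, a FACIT chain on fibrils also called undulin, was the 1 collagen that rose, and 0 fell, while 0.223% of all genes rose and 1.37% fell. Col14a1 was at 1.14, 2.84 and 5.02 TPM (lowest, median and highest) in young isotype tumours and at 2.78, 5.75 and 23.3 TPM under anti-PD-L1. In CPM all 10 treated libraries lay above the isotype median, while in TPM the lowest treated library (2.78) lay just under it (2.84). The groups overlapped. The CPM was 28.6 ± 16 (n = 10) against 13.5 ± 3.67 (n = 7), a log2 fold change of 1.02 ± 0.26 (edgeR adjusted p = 0.0347).

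Most other collagens sat on the same side without passing. Of 39, 33 were above 0, with a median log2 fold change of 0.49 beside 0.02 for all genes, and 9 of 10 fibrillar genes were above 0 with a median of 0.95. Col3a1 was at 0.89 ± 0.33 (edgeR adjusted p = 0.113), Col1a1 at 1.12 ± 0.48 (0.147) and Col4a1 at 0.84 ± 0.31 (0.110). At an unadjusted p under 0.05 edgeR had 17 of the 39 (8 fibrillar, 3 basement membrane and 6 other) and 24.2% of all genes. Stromal and vessel markers lay on that side too, none of them passing: 10 of 10 fibroblast markers were above 0 (median 0.64), 8 of 8 endothelial (0.61) and 6 of 6 adipocyte markers (0.74). The summed fibroblast level was 316 CPM (266 to 574) in isotype and 404 CPM (327 to 832) in anti-PD-L1 tumours, and the endothelial level 184 CPM (108 to 227) and 242 CPM (170 to 441). Their part in the collagen values was not tested. With the length trend as a covariate the fibrillar median was 0.12 and Col14a1 was at 0.45 (edgeR adjusted p = 0.877). With 4 libraries left out whose composition factor (TMM) is under 0.8, namely aged isotype replicate 3, young anti-CTLA4 replicate 8 and young isotype replicates 1 and 6, Col14a1 was at 0.89 (edgeR adjusted p = 0.317).

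Of the 6 collagens below 0, Col4a3, a chain of the basement membranes of kidney and lung, lay farthest, at 0.329, 0.733 and 1.39 TPM in young isotype tumours and at 0, 0.168 and 0.459 TPM under anti-PD-L1. Its CPM did not overlap between these groups, at 3.29 ± 1.94 (n = 7) and 0.568 ± 0.413 (n = 10), which 0.318% of all genes also showed, while in TPM the lowest isotype library (0.329) lay under the highest treated one (0.459). The log2 fold change of -2.57 ± 0.77 did not pass (edgeR adjusted p = 0.0668). In batch 2 alone, which holds all young isotype and 9 of the anti-PD-L1 libraries, it passed at -2.56 (edgeR adjusted p = 0.0428). DESeq2 called Col14a1, higher, and Col4a3, lower (-2.62, DESeq2 adjusted p = 0.0440), beside 4.08% of the genes it tested. Col4a3 is a gene of few reads, with 674 estimated counts over all 52 libraries and a count above 0 in 43 of them.

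Under anti-CTLA4 in young hosts edgeR called 0 of 39 collagens, with 1 at an unadjusted p under 0.05, and DESeq2 called 0, against 0.0726% of all genes called by edgeR (0.00559% higher and 0.067% lower), 6.97% at the unadjusted p and 0.186% called by DESeq2. CPM overlapped between the groups in each of the 39, where 0.128% of all genes did not overlap. The collagens lay around no difference, 20 of 39 above 0 with a median of 0.00. Col4a3 had the smallest p, at 0, 0.123 and 0.709 TPM under anti-CTLA4 beside 0.329, 0.733 and 1.39 TPM in isotype tumours, and a log2 fold change of -3.10 ± 1.1 (edgeR adjusted p = 0.446). Col8a2, a network chain, was first among those above 0, at 0.82 ± 0.53 (edgeR adjusted p = 0.842). Without the batch term the fibrillar median moved from -0.02 to 0.65, and 4 of 39 collagens passed, beside 1240 of 17899 genes. Batch 2 held only 3 of the 12 anti-CTLA4 libraries. In batch 2 alone the median of the collagens tested was -0.27 (10 of 35 above 0), and without the 4 libraries of low TMM factor it was -0.20 (12 of 39 above 0).

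In aged hosts anti-PD-L1 against isotype gave 0 of 39 collagens by edgeR, 14 at an unadjusted p under 0.05, and 2 of 22 tested by DESeq2 (Col4a1 and Col4a2). Of all genes edgeR called 0%, 30.1% had an unadjusted p under 0.05, and DESeq2 called 17.9% of those it tested. Of the 39, 35 were above 0 with a median of 0.70 beside 0.05 for all genes, and the medians were 0.79 fibrillar, 0.86 basement membrane and 0.69 other. Col4a1 was at 6.73, 24 and 32.1 TPM in aged isotype tumours and 21.9, 43.3 and 62.9 TPM under anti-PD-L1, so the upper part of the treated range lay above all isotype libraries. Its log2 fold change was 1.01 ± 0.35 and that of Col4a2 1.13 ± 0.39 (edgeR adjusted p = 0.0878 each). Col4a6, of smallest p, was at 0.86 ± 0.29 (edgeR adjusted p = 0.0878). The low-count gene Col22a1, which is expressed at tissue junctions, was first below 0, at -1.59 ± 1.05 (edgeR adjusted p = 0.298). With the length trend as a covariate the class medians were -0.13, 0.16 and 0.15.

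Anti-CTLA4 in aged hosts gave the same counts, 0 by edgeR, 14 at an unadjusted p under 0.05 and 2 by DESeq2 (Col4a1 and Col4a2, of 19 tested). Of all genes edgeR called 0%, 29.7% had an unadjusted p under 0.05, and DESeq2 called 20.2% of those it tested. In both aged antibody comparisons the share of collagens was below that of all genes by DESeq2 and slightly above it at the unadjusted p. All 8 endothelial markers lay above 0 in both (medians 0.40 for anti-PD-L1 and 0.49 for anti-CTLA4), as did 4 and 6 of 10 fibroblast markers. The 6 mammary secretory markers all lay above 0 too, with the largest medians of the marker lists (3.22 and 2.43, in that order). Of 4 skeletal muscle markers tested 0 lay above 0 (medians -0.82 and -0.64). No marker passed, and the part of these markers was not tested. Both comparisons share the 7 aged isotype libraries. Here 32 of 39 were above 0 with a median of 0.59 beside 0.02 for all genes. Col9a2, a type IX FACIT chain, had the smallest p at 2.38 ± 0.72 (edgeR adjusted p = 0.0956), and Col4a1 was at 0.95 ± 0.33 (0.0956). Col4a1 lay at 21.0, 39.2 and 97.0 TPM under anti-CTLA4, which overlapped the isotype range. Col4a3 was the first below 0, at -2.63 ± 1.14 (edgeR adjusted p = 0.121). With the length trend as a covariate the fibrillar median was -0.23 and the basement membrane median 0.06.

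The difference of an antibody's effect between ages was tested directly, and edgeR called 0 of 39 collagens for either antibody, as it did 0% of all genes. DESeq2 called 0 collagens, and 0.172% of all genes for anti-PD-L1 and 0.123% for anti-CTLA4. At an unadjusted p under 0.05 there were 0 collagens for anti-PD-L1 (3.66% of all genes) and 1 for anti-CTLA4 (7.02% of all genes), Col18a1 (0.94 ± 0.46, edgeR adjusted p = 0.634). Col22a1 (-2.78 ± 1.49) was first below 0 for anti-CTLA4, and Col4a6 (0.78 ± 0.39) and Col8a2 (-1.22 ± 0.63) had the smallest p in each direction for anti-PD-L1. No batch holds all 4 groups of either test, so none could be fitted within 1 batch.

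Aged against young under isotype asks what host age alone did. Col4a3 was the 1 collagen that fell, and 0 rose, while 8.41% of all genes were called (4.36% higher and 4.04% lower). Col4a3 in the aged libraries was at 0.00452, 0.0190 and 0.195 TPM, below every young library (0.329 to 1.39 TPM), with 0.318 ± 0.458 CPM (n = 7) against 3.29 ± 1.94 CPM (n = 7), a log2 fold change of -4.02 ± 1.31 (edgeR adjusted p = 0.0440). Col11a1, a minor fibrillar chain, was the other collagen whose CPM did not overlap, higher in aged tumours, and 3.80% of all genes did not overlap. In TPM the Col11a1 ranges did overlap, at 0.0185 to 0.187 in young and 0.0897 to 0.317 in aged tumours. No batch holds both groups (aged in batches 1 and 3, young in 2), so age and batch cannot be told apart within a batch. Without aged isotype replicate 7 the Col4a3 difference was -3.61 (edgeR adjusted p = 0.0691), and with no filter on low counts -3.96 (edgeR adjusted p = 0.0688).

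The abundant collagens did not pass by age under isotype. Col3a1 was at -0.01 ± 0.57, and 30 of the 39 were below 0 with a median of -0.54 beside -0.09 for all genes. Without the batch term the median was -0.08 and the fibrillar median turned from -0.60 to 0.17. With only the 2 groups in the fit the 2 medians were 0.09 and 0.19. That fit kept the batch term, so its difference rests on the 3 aged libraries of batch 1 against the 7 young ones. Col8a1, a network chain of vessel walls and cornea, was first above 0, at 3.50, 7.59 and 21.8 TPM in young and 11.2, 19.1 and 27.2 TPM in aged tumours. It overlapped, and its difference was 0.86 ± 0.42 (edgeR adjusted p = 0.191).

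Under anti-PD-L1, aged against young gave 0 of 39 collagens by edgeR and 0 by DESeq2, with 3 at an unadjusted p under 0.05, against 5.04% of all genes by edgeR (3.08% higher and 1.97% lower), 8.41% by DESeq2 and 21.1% at the unadjusted p. CPM overlapped between the groups in each of the 39, where 1.4% of all genes did not overlap. Col4a5 was first above 0, at 0.75 ± 0.33 (edgeR adjusted p = 0.179), and Col6a5, a type VI chain, first below, at -2.78 ± 1.22 (edgeR adjusted p = 0.175). The fibrillar median was -0.87, with 9 of 10 below 0, and without the batch term it was -0.28. With only the 2 groups in the fit the fibrillar median was 0.58, with 8 of 10 above 0. That fit kept the batch term and set the 8 aged libraries against the 1 young library of batch 3, so its sign rests on 1 library. No direction of the fibrillar genes is read from this comparison. In the fit over all libraries fibroblast and endothelial markers lay below 0, 10 of 10 (median -0.63, with 1 passing) and 8 of 8 (-0.48). These markers were not read in the other fits, so no direction is read from them either. Their part was not tested. No batch holds both groups here either.

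Aged against young under anti-CTLA4 was the comparison with most collagens called, and also the one with most genes called. Of the 39, 5 rose (14.8% of all genes did) and 3 fell (15.9% did), which together is 8 of 39 beside 30.6% of all genes. Both shares were below those of all genes, so no pattern of classes is read from these calls. Those that rose were Col8a1, Col18a1, Col17a1, Col4a5 and Col4a6. Those that fell were Col4a3, Col20a1 and Col11a2, all low in level. Col17a1 and Col4a6 among those that rose were low too (means over groups of 0.553 and 0.291 TPM).

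**Figure D4:**
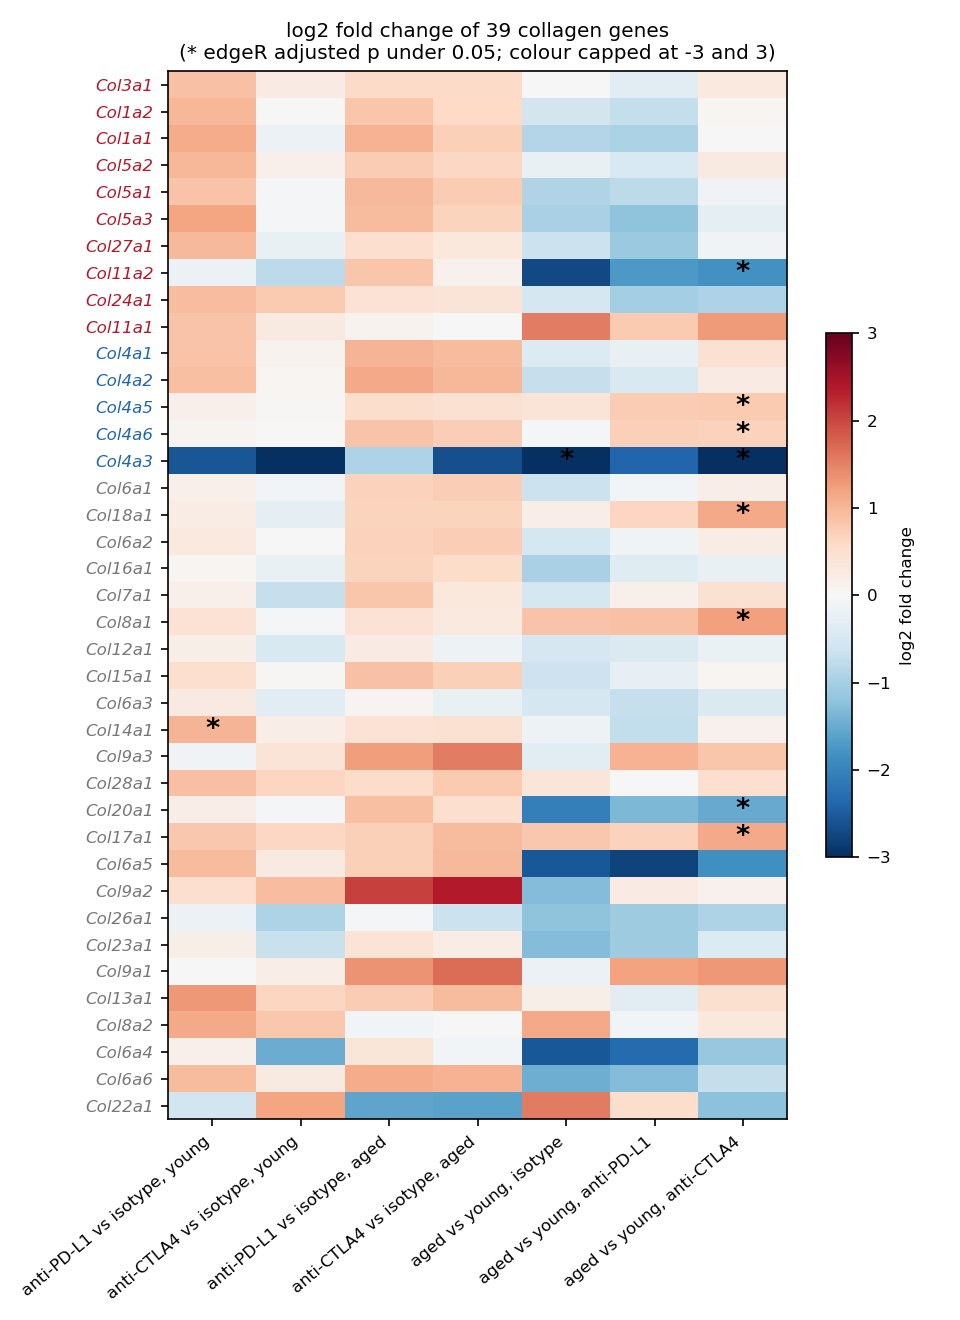
Log2 fold changes of the 39 tested collagens in the 7 pairwise comparisons (colour, capped at -3 and 3), with an asterisk where the edgeR adjusted p was under 0.05. Asterisks stand at 8 genes for aged against young under anti-CTLA4, at Col14a1 for young anti-PD-L1 and at Col4a3 for aged against young under isotype.

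Col8a1 was at 1.27, 10.5 and 22.1 TPM in young and 19.7, 27 and 40.4 TPM in aged anti-CTLA4 tumours. All 8 aged libraries lay above the young median, with overlap at the young top. The CPM of 125 ± 14.8 (n = 8) against 55.3 ± 26.2 (n = 12) gave 1.22 ± 0.28 (edgeR adjusted p = 0.00104). Col8a1 also kept its call in batch 1 alone (1.34, edgeR adjusted p = 0.0341).

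Col18a1 was at 4.42, 36.7 and 69.2 TPM in young and 54.5, 79.7 and 154 TPM in aged anti-CTLA4 tumours, so the aged libraries started within the upper young range. The CPM was 396 ± 111 (n = 8) against 181 ± 75.9 (n = 12), a difference of 1.14 ± 0.29 (edgeR adjusted p = 0.00213). In batch 1 alone it was 1.18 (edgeR adjusted p = 0.0580).

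Col17a1, the transmembrane collagen of hemidesmosomes that fastens basal epithelium, was at 0.0880, 0.451 and 0.694 TPM in young and 0.284, 0.785 and 1.85 TPM in aged tumours. Of 8 aged libraries 7 exceeded the young median, and the difference was 1.13 ± 0.30 (edgeR adjusted p = 0.00408). Col4a5, a basement membrane chain of kidney, skin and other epithelia, was at 0.458, 4.26 and 7.94 TPM against 4.56, 6.79 and 13.0 TPM, a difference of 0.79 ± 0.23 (edgeR adjusted p = 0.00796). Col4a6, its partner in the head-to-head pair on X, was at 0.0690, 0.225 and 0.352 TPM against 0.250, 0.366 and 0.659 TPM, a difference of 0.69 ± 0.26 (edgeR adjusted p = 0.0377). For Col4a5 and Col4a6 all 8 aged libraries lay above the young median.

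Col4a3 was at 0, 0.123 and 0.709 TPM in young and 0, 0.0207 and 0.0816 TPM in aged anti-CTLA4 tumours, a difference of -3.55 ± 0.91 (edgeR adjusted p = 0.00271). Col20a1, a FACIT chain, was at 0.264, 0.721 and 2.18 TPM against 0.162, 0.311 and 0.949 TPM, a difference of -1.51 ± 0.46 (edgeR adjusted p = 0.00989). Col11a2, a minor fibrillar chain of cartilage, was at 0.0751, 0.656 and 2.85 TPM against 0.108, 0.287 and 0.683 TPM, a difference of -1.81 ± 0.59 (edgeR adjusted p = 0.0158). All 3 genes overlapped between the ages.

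The major collagens did not pass: Col1a1 was at 0.01 ± 0.48, Col3a1 at 0.30 ± 0.34 and Col4a1 at 0.45 ± 0.32 (edgeR adjusted p = 0.283). Of the 8 calls, 5 remained with the length trend as a covariate (Col8a1 at 0.93, Col18a1 at 0.67, Col4a3, Col20a1 and Col11a2), and Col17a1 (0.67, edgeR adjusted p = 0.0612), Col4a5 (0.47, 0.0811) and Col4a6 (0.48, 0.169) did not pass. That fit called 8 further collagens, all lower in aged tumours, among them Col5a1 (-0.82) and Col5a3 (-1.1). In all it called 13 of 39 collagens (2 higher and 11 lower), beside 5936 of 17899 genes (2949 higher and 2987 lower). Its fibrillar median was -0.77 in place of -0.04. The length trend was 0.188 ± 0.0683 higher in aged than in young anti-CTLA4 tumours. The part of the trend in these differences was not tested further.

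Other genes that handle collagen were read from the same fit. Of 73 tested, 18 passed in aged against young anti-CTLA4 tumours, beside 30.6% of all genes, of which 14.8% rose and 15.9% fell, so the list's share was below that of all genes. In aged against young anti-CTLA4 tumours, of 20 folding and modification genes 2 rose, among them the lysyl hydroxylase Plod2 (0.62 ± 0.21, edgeR adjusted p = 0.0228), and 1 fell. Of 11 tested genes for propeptide cleavage and cross-linking 2 rose, led by Bmp1, the protease that trims procollagen (0.82 ± 0.20, edgeR adjusted p = 0.00132). Of 13 fibril partners 1 rose, Lum, a proteoglycan on fibrils (1.12 ± 0.34, edgeR adjusted p = 0.00946). Of 15 basement membrane partners 4 rose, among them the laminin chains Lama1 (1.54 ± 0.46) and Lama3 (1.36 ± 0.40) and the cross-linking peroxidase Pxdn (0.86 ± 0.25), and the vascular laminin chain Lama4 fell (-1.12 ± 0.28, edgeR adjusted p = 0.00181).

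Of 9 tested collagen receptors 4 rose in that comparison, the integrin chains Itgb1 (0.78 ± 0.16, edgeR adjusted p = 0.000361), Itga1 and Itga2 and the receptor tyrosine kinase Ddr2. Of 5 collagenases, enzymes that cut collagen, 3 fell, namely Mmp8, the collagenase of neutrophils (-2.91 ± 0.62, edgeR adjusted p = 0.000441), Mmp9 and Mmp13. Mmp8 (-4.14 ± 1.11, edgeR adjusted p = 0.0227) and Lama4 (-1.62 ± 0.44, edgeR adjusted p = 0.0251) fell in aged against young anti-PD-L1 tumours too. They were the 2 calls among the 73 genes there, beside 5.04% of all genes. In young hosts under anti-PD-L1 the fibrillar collagen receptor chain Itga11 rose (2.29 ± 0.59, edgeR adjusted p = 0.0347) and Itga10 fell (-1.17 ± 0.27, edgeR adjusted p = 0.0139). These were 2 of 73, beside 1.59% of all genes, while 34 of 73 had an unadjusted edgeR p under 0.05, beside 24.2%. All 13 fibril partners and all 15 basement membrane partners lay above 0 there, none passing. Their medians were 0.58 and 0.49, beside 0.02 for all genes. In the remaining 3 antibody comparisons and in aged against young under isotype, edgeR called 0 of these 73 tested genes, with 1 (young anti-CTLA4), 19 (aged anti-PD-L1), 13 (aged anti-CTLA4) and 13 (isotype) at an unadjusted p under 0.05. In isotype tumours 24.6% of all genes were under that p.

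Cell type markers also differed by age under anti-CTLA4, where 14.8% of all genes rose and 15.9% fell. Of 6 epithelial markers 5 rose, among them Epcam (1.07 ± 0.19, edgeR adjusted p = 5.5e-05) and Krt7 (1.38 ± 0.22), with a median summed level of 1546 CPM (580 to 2672) in young and 2565 CPM (2101 to 3213) in aged tumours and none at 0. From the list of skin keratinocyte markers, Krt5 (1.59 ± 0.53) and Krt14 (1.02 ± 0.33) also rose. Of that list 3 of 6 were kept by the filter, and of these 2 lay above 0 and the other below. No skin content is read from it. Fibroblast markers had median summed levels of 506 CPM (309 to 880) and 476 CPM (350 to 551). Of these 10 markers 2 lay above 0, with a median log2 fold change of -0.35, and 1, Pdpn, passed as lower. Their part in the collagen differences was not tested.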

How the data were processed

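RNA of 52 tumours in 6 groups was measured. The submitters' processing notes name Salmon (no version), DESeq2 1.16.1 and the mouse build mm10. The authors deposited estimated counts per gene, all whole numbers, and TPM values per gene for the same libraries. The route from Salmon's transcripts to genes, and any use of strand, are not given in the sources used here. Antisense and overlapping genes are therefore uncertain. Per the labels' protocols, libraries came from 500 ng of total RNA with a strand-marking kit, from tumours of no more than about 150 mm3.

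Of 47729 identifiers, 47224 matched a symbol of GENCODE vM21, 505 did not, and 11075 were 0 in every library. Members were chosen by symbol. The members, classes, lists and tests were chosen with earlier results of these data known. Named are the members that passed, the 3 of highest mean TPM in each class, the smallest p in each direction where under 5 passed, and the subunit pairs of types I, IV and VI. Members named beyond this rule, and the pathway genes and markers given with values, were chosen after their values were seen.

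Counts were tested with edgeR 4.0.16 (R 4.3.3): filterByExpr (17899 genes), TMM factors (0.618 to 1.21), 1 fit over all libraries with group and sequencing batch, quasi-likelihood F tests and Benjamini-Hochberg adjustment over all genes, threshold 0.05. Log2 CPM used a prior count of 2. TPM was used for levels only. Correlations used residuals after group and batch means and 100000 permutations (scipy 1.17.1). Counts of 209 pairs of libraries within a group differed by a chi-square of at least 17.9 per degree of freedom, above sampling noise, so each library counted as 1 replicate. On simulated data, of 100 genes changed 2-fold and 100 changed 4-fold among 17704 genes, 40 and 92 were recovered for aged against young anti-CTLA4. For young anti-PD-L1, 56 and 91 were recovered, and for aged anti-PD-L1, 37 and 87. The changed genes were drawn from all genes of sufficient count, with no batch or length trend simulated. Collagens scatter more (median residual SD 0.77 against 0.45 log2 units), so recovery of collagens was not measured.

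Alternatives were DESeq2's size factors in edgeR, the unfiltered table (36654 genes), a fit with group alone, the replicate number as a block, the length trend as a covariate, the fit without the 4 libraries whose TMM factor is below 0.8, or without aged isotype replicate 7, only the groups compared, 1 batch alone, and DESeq2 1.42.0. Removing the length trend from the correlations was chosen after seeing the data.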

Additional observations from a re-analysis of the deposited data

Results flagged for a closer look

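For the 21 collagens named by the rule, each group of 4 to 10 libraries was checked for a library whose gap to the next was a large share of the group's range (Dixon's 95% critical value). Of 105 such groups, 15 had one. The critical value gives about 1 in 20 for independent values of a normal distribution. Collagen TPM values vary together and were not checked for normality, so no excess over chance is read. Values are TPM.

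Young anti-PD-L1 replicate 5, the library of highest summed collagen TPM (3820), stood apart in 4 genes: Col6a2 at 141 (next 68.7), Col6a3 at 70.9 (next 29.5), Col17a1 at 2.37 (next 0.783) and Col20a1 at 2.03 (next 1.05). Young anti-PD-L1 replicate 4 stood apart in the type VIII pair, with Col8a1 at 48.0 (next 21.2) and Col8a2 at 0.711 (next 0.422).

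Among aged anti-PD-L1 libraries, replicate 8 was high in Col3a1 at 802 (next 484) and Col6a5 at 1.69 (next 0.221), and replicate 1 in Col4a3 at 0.352 (next 0.164). Aged isotype replicate 4 was high in Col3a1 at 606 (next 342).

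Aged anti-CTLA4 libraries gave replicate 6 for Col6a5 at 1.45 (next 0.564), replicate 4 for Col4a3 at 0.0816 (next 0.0358) and replicate 1 for Col22a1 at 0.114 (next 0.0247). Young isotype libraries gave replicate 7 for Col8a1 at 21.8 (next 11.1) and replicate 3 for Col22a1 at 0.339 (next 0.107). Col22a1 and Col4a3 are low in every group.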

How the results depend on the processing

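Numbers are collagens called of those tested, higher and lower together, and the cause of a moved count was not tested. Young anti-PD-L1 (1 called) gave 0 with the length trend as a covariate, 0 with 4 low-TMM libraries left out and 2 with DESeq2. With only the 2 groups, or batch 2 alone, its 1 call was Col4a3, lower, in place of Col14a1. Those 2 fits called 142 of 15593 and 138 of 15475 genes. Young anti-CTLA4 (0 called) gave 4 of 39, all higher, without the batch term, beside 1240 of 17899 genes (699 higher). Aged anti-PD-L1 and aged anti-CTLA4 (0 called each) gave 2 of 22 and 2 of 19 with DESeq2, beside 2300 of 12870 and 2033 of 10076 genes. Aged against young under isotype (1 called) gave 0 without the filter, 0 with the replicate block and 0 without aged isotype replicate 7. It gave 5 of 39 without the batch term (4 higher), beside 3261 of 17899 genes. With the length trend it gave 4 of 39, all lower, beside 3924 of 17899 genes. With the low-TMM libraries left out it gave 3 of 40, beside 2690 of 18293 genes, and with DESeq2 3 of 42, beside 2234 of 20536. In each of these fits the share of collagens was below that of all genes. Under anti-PD-L1, aged against young (0 called) gave 1 without the batch term (Col8a1, higher) and 1 with the length trend (Col5a3, lower). Those fits called 2192 and 2958 of 17899 genes. Under anti-CTLA4, aged against young (8 called) gave 13 of 39 with the length trend (2 higher and 11 lower), beside 5936 of 17899 genes. In batch 1 alone it gave 5 of 38, all 5 among the 8, beside 3596 of 16363 genes. Both differences between ages kept 0 under each alternative run.

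The replicate block gave 9 of 39 collagens for aged against young anti-CTLA4, of which 7 were among the 8, beside 4285 of 17899 genes. With the block the fibrillar medians were 0.30 for aged against young anti-PD-L1 (-0.87 without it) and 0.61 for anti-CTLA4 (-0.04). Numbers in the labels pair no samples by any stated source: the correlation of deviations over 113 same-number pairs had a median of -0.02 (-0.54 to 0.53), against -0.01 for other pairs, and 3 libraries correlated best with their own number. Over all genes, young anti-PD-L1 called 285, 24 with the length trend, 18 without libraries of low TMM factor and 894 with DESeq2. Young anti-CTLA4 called 13, and 1240 without the batch term. Depth limits Col4a3, Col22a1 and the genes under 0.1 TPM most.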
